A study of Nothobranchius furzeri and Iconisemion striatum and Callopanchax occidentalis with 18 samples.

Results

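The microRNAs (miRNAs) of whole embryos at the somite stage were compared between 3 small RNA libraries of Nothobranchius furzeri, an annual killifish, and 4 libraries of A. striatum, a non-annual killifish whose organism is given as Iconisemion striatum in the labels. None of these embryos was in diapause, the reversible arrest of development that annual killifish can enter. The N. furzeri embryos were all of strain MZM0410 and the labels give no strain name for A. striatum. The libraries were chosen by their labels for species and diapause and make up 7 of the 18 libraries in the series, which covers 8 species. The deposited table listed 291 mature miRNAs, of which 270 had a count in these 7 libraries and 21 had none. With 1 annual and 1 non-annual species, the life style and everything else that differs between these species cannot be told apart. In whole embryos, fewer cells of a type and less RNA per cell cannot be told apart either. Whether the replicates were separate clutches is not in the labels, so every p-value rests on the spread among these libraries, which may be technical.

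A miRNA is cut from a folded precursor, the hairpin, whose 5p arm and 3p arm each give a mature RNA of about the length of a small RNA read. One arm is usually loaded into the silencing complex and pairs with messenger RNAs to repress them, while the other, the minor arm, is mostly degraded and is therefore rare. Which arm is kept can differ between tissues and between species. All 8 species were counted on the same list of names, so an arm whose sequence differs from the listed one in 1 species can lose reads there. The sequences that served as the counting reference were not given in the sources used here, and their part in the differences below was not tested.

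Among abundant miRNAs, the N. furzeri embryos had less of miR-430c-3p, which clears maternal messenger RNAs, less of the hypoxia-responsive miR-462 and miR-731, and less of miR-204-5p and let-7g. They had more of miR-27c-3p and miR-30e-3p. These differences lay between 1.88 and 3.31 on the log2 scale in either direction. Of these miRNAs, only miR-462 passed the test in every fit that left out 1 library. The largest differences, up to 8.07 on the log2 scale, were those of single arms that 1 species almost lacked, such as miR-735-5p in N. furzeri and miR-430a-5p in A. striatum.

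The counts on miRNAs were 4177400, 1285872 and 2545989 in N. furzeri replicates 1 to 3, and 1467661, 2406413, 1077129 and 751598 in A. striatum replicates 1 to 4. They made up 21.2 to 33.05% of the reads of 18 to 33 nt in N. furzeri and 6.29 to 26.7% in A. striatum. A count of 0 allows up to 3 counts, the floor, which lay between 0.718 and 2.33 RPM (reads per 1000000 miRNA counts of the library) in N. furzeri and between 1.25 and 3.99 RPM in A. striatum; floors and counting intervals cover counting error only. The data file name of replicate 4 of A. striatum gives lane 1, and those of the other 6 libraries give pool 3. These names stand for the sequencing run below, although a file name alone does not show that libraries shared a run. Over the abundant miRNAs, the root mean square difference in log2 CPM (the same unit after scaling between libraries by trimmed means) was 0.577 to 1.04 between N. furzeri libraries, 0.851 to 1.52 between A. striatum libraries and 1.54 to 2.38 between species. miRNAs known from muscle, nerve cells, eye, skin and gut were counted in every library. Among the more abundant, miR-206-3p of muscle stood at 46.7 to 85.7 RPM in N. furzeri and 46.6 to 189.5 RPM in A. striatum. miR-9-5p of neural progenitors stood at 112.7 to 124.4 RPM in N. furzeri and 203 to 427 RPM in A. striatum. Others had few reads, such as miR-1 of muscle with 3 to 44 counts per library and the neuronal miR-124-3p with 3 to 21. miR-451 of red blood cells stood at or near 0 in 6 of the 7 libraries and at 12.9 RPM in replicate 2 of A. striatum. Its cluster neighbour miR-144-5p reached 361.5 RPM there, and also 173.7 RPM in replicate 1 of A. striatum, which had 0 counts of miR-451.

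A few miRNAs filled both species' libraries. The miRNAs of the Hox clusters, miR-10 and miR-196, which lie among the genes that pattern the body axis, took 83.6, 64.6 and 74.0% of the counts in N. furzeri replicates 1 to 3, against 56.0, 48.9, 24.8 and 22.1% in A. striatum replicates 1 to 4. The miR-430 family, which clears maternal messenger RNAs in the early fish embryo, took 4.32, 20.9 and 11.9% in N. furzeri and 33.9, 34.4, 64.1 and 52.4% in A. striatum. Neither family's shares overlapped between the species, and replicates 3 and 4 of A. striatum, which had the highest miR-430 shares, had the lowest Hox shares. Together the families held most counts of every library, so a high miR-430 share leaves less for the Hox miRNAs. Their shares are therefore not separate results. The 10 most abundant miRNAs held 93.6 to 94.3% of the counts in N. furzeri and 88.9 to 95.1% in A. striatum. The effective number of miRNAs (the exponential of the Shannon entropy, which counts how many equally abundant miRNAs would give the same spread) was 4.63 ± 0.682 in N. furzeri (SD, n = 3) and 7.13 ± 1.87 in A. striatum (n = 4), with a two-sided exact permutation p of 0.114. A library held 128 to 130 miRNAs at 10 RPM or more in N. furzeri and 115 to 167 in A. striatum (difference of the means -10.25, exact permutation p = 0.543). Minor arms took 0.299 to 0.507% of counts in N. furzeri and 0.602 to 1.64% in A. striatum, ranges that did not overlap but gave an exact permutation p of 0.0571, where 35 assignments allow 0.0286 at the least. Adjusted over these 3 values the p was 0.171, 0.543 and 0.171 for the effective number, the number of miRNAs and the minor arms.

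**Figure D1:**
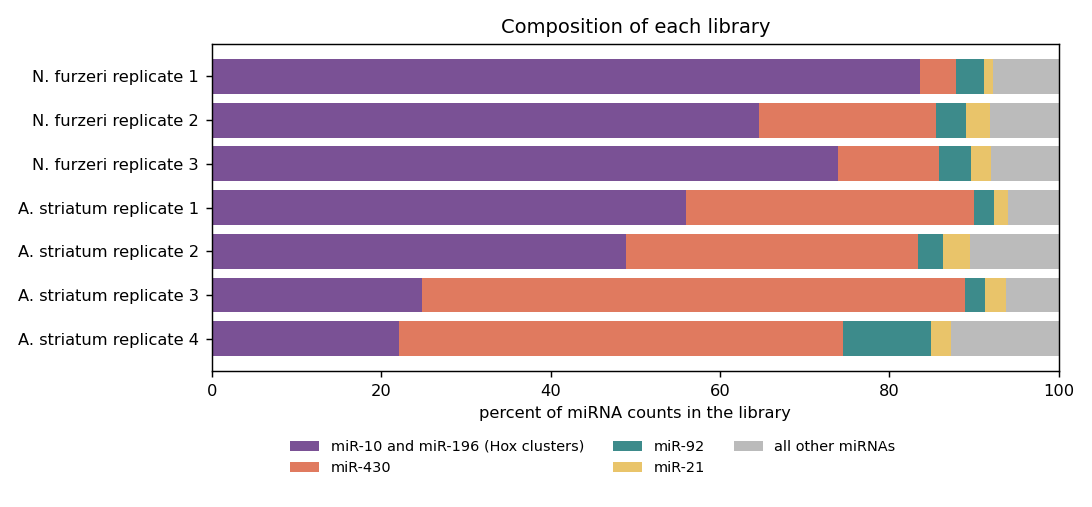
Share of miRNA counts in each of the 7 libraries (x axis, percent) taken by the Hox cluster miRNAs, miR-430, miR-92, miR-21 and all others, 1 bar per library. The N. furzeri bars are led by the Hox cluster miRNAs at 64.6 to 83.6%, and replicates 3 and 4 of A. striatum by miR-430 at 64.1 and 52.4%.

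Of 157 miRNAs with enough counts to test, 34 (21.7%) passed an adjusted p of 0.05 in edgeR's quasi-likelihood test and are named called. In N. furzeri 12 of them (7.64%) were higher and 22 (14.0%) were lower. For 59 miRNAs (37.6%) the libraries of 1 species all lay above those of the other, 28 being higher and 31 lower in N. furzeri, and all 34 called miRNAs were among them. The median log2 fold change (N. furzeri over A. striatum) of all tested miRNAs was -0.00416. An arm was classed as abundant where it averaged at least 50 CPM over the 7 libraries. There were 93 such arms, which held at least 99.6% of the counts of each library, and 18 of them (19.4%) were called, 6 higher and 12 lower. The 64 rare arms held at most 0.328% of any library's counts, and 16 of them (25%) were called, 6 higher and 10 lower. Non-overlap was about as frequent in both classes, at 38.7% of abundant and 35.9% of rare arms, and the median standard error of the log2 fold change was 0.50 for abundant and 0.64 for rare arms.

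The 4 largest fold changes belonged to arms for which 1 species had almost no reads. An arm was taken as near the floor in a species whose median count was 10 or less. Of the 34 called arms, 7 were near the floor in N. furzeri, all lower there, and 4 in A. striatum, all higher in N. furzeri. These 11 had absolute log2 fold changes of 1.98 to 8.07 with a median of 3.24, and 3 of them were abundant by their average. The 23 called arms with more reads in both species had absolute values of 1.49 to 3.57 with a median of 2.15, 15 of them abundant and 8 rare. Of the tested arms near the floor in a species, all 3 abundant ones and 8 of 20 rare ones were called. A larger count in 1 species is what lets such an arm enter the test, so the share called among them is no measure of how often near-floor arms differ.

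**Figure D2:**
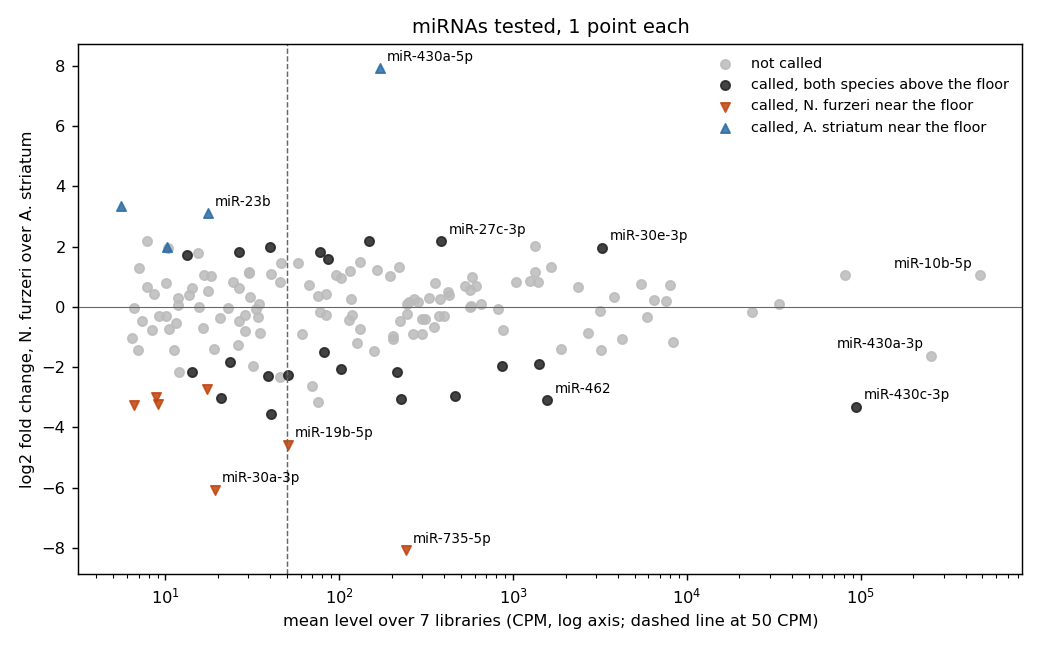
Log2 fold change of N. furzeri over A. striatum (y axis) against the mean level over 7 libraries in CPM (x axis, log scale, dashed line at 50 CPM) for 157 miRNAs, 1 point each. Grey points were not called, black points were called with reads in both species, and triangles mark the 11 called arms near the floor in N. furzeri (pointing down) or A. striatum (pointing up), which reach from -8.07 to 7.93.

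DESeq2 called 38 of the 157 miRNAs, and edgeR gave 57 an unadjusted p under 0.05. Many of the 34 calls were lost when 1 library was left out. Without replicate 1, 2 or 3 of N. furzeri edgeR called 7, 12 and 9 miRNAs, and without replicate 1 of A. striatum 18. Without replicate 2, 3 or 4 of A. striatum it called 36, 33 and 44. The fits without replicate 1, 2 and 3 of N. furzeri kept 7, 11 and 9 of the 34 calls, and those without replicate 1, 2, 3 and 4 of A. striatum kept 18, 29, 30 and 32. No called value changed sign in these fits, and the adjusted p of a lost call lay between 0.0505 and 0.205. Held in every fit were the calls of miR-735-5p, miR-30a-3p, miR-430a-5p, miR-19b-5p, miR-23b and miR-462, of which all but miR-462 were near the floor in a species. Library totals in place of trimmed means gave 19 calls, 21.1% of them higher in N. furzeri where trimmed means gave 35.3%, and moved the median of all miRNAs to -0.33.

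Of the 10 most abundant miRNAs, 1 was called. miR-10b-5p of the Hox clusters, the most abundant over all libraries, stood at 813916, 614481 and 624556 CPM in N. furzeri replicates 1 to 3, against 600550.0, 256534, 364046 and 96559 CPM in A. striatum replicates 1 to 4. Every N. furzeri library was higher than every A. striatum library, and the log2 fold change was 1.05 (SE 0.69, adjusted p = 0.266). miR-10d-5p of the same clusters gave 1.07 (SE 0.62, adjusted p = 0.205), with overlapping libraries. miR-430a-3p, the chief arm of its hairpin, stood at 45399, 199571 and 103398 CPM in N. furzeri replicates 1 to 3, against 305409, 157519, 773247 and 184231 CPM in A. striatum replicates 1 to 4, with replicate 2 of N. furzeri inside the A. striatum range, and gave -1.61 (SE 0.79, adjusted p = 0.161). miR-92a-3p of the miR-17-92 clusters, known for promoting proliferation, was between 34617 and 35092 CPM in N. furzeri and 18126 and 51394 CPM in A. striatum, with a fold of 0.09 on the log2 scale (SE 0.50). miR-21, which is widely expressed, came to -0.17 (SE 0.55), miR-203a-3p and miR-205-5p of the skin to 0.20 (SE 0.54) and 0.24 (SE 0.40), miR-181a-5p to 0.71 (SE 0.55) and miR-10c-5p to -1.16 (SE 0.67). The libraries overlapped for each of these 6, and the adjusted p lay between 0.205 and 0.904. The signs of miR-92a-3p, miR-21 and miR-203a-3p turned under another scaling or without 1 library.

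The abundant miRNA with the most counts among those called was miR-430c-3p, a sister of miR-430a in the family that removes maternal messengers. It stood at 5208, 27517 and 13603 CPM in N. furzeri replicates 1 to 3, against 123306, 80774, 310043 and 96382 CPM in A. striatum replicates 1 to 4. The highest N. furzeri library, replicate 2, lay below the lowest A. striatum library, and the log2 fold change was -3.31 (SE 0.80, adjusted p = 0.0135). It came to -2.71 without replicate 3 of A. striatum, and the call was lost without replicate 1 (-2.84) or replicate 3 (-3.16) of N. furzeri. Across the other species miR-430c-3p stood between 223 RPM in A. leohoignei and 126639 RPM in E. dageti monroviae, and the 5 N. furzeri diapause libraries held 1207 to 14030.0 RPM.

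miR-462 and miR-731 are neighbours in a fish miRNA cluster that responds to low oxygen and to viruses in zebrafish. miR-462 stood at 266, 385 and 240.1 CPM in N. furzeri replicates 1 to 3, against 1408, 1831, 4987 and 1854 CPM in A. striatum replicates 1 to 4. It was lower in every N. furzeri library, and the log2 fold change was -3.09 (SE 0.55, adjusted p = 0.00367), and the highest A. striatum library, replicate 3, lay well above the other 3. miR-731 stood at 70.4, 137 and 78.6 CPM in N. furzeri replicates 1 to 3, against 277, 313, 1424 and 920.1 CPM in A. striatum replicates 1 to 4; its fold was -2.95 (log2, SE 0.65, adjusted p = 0.0120). Every N. furzeri library was below every A. striatum library for miR-731 too, and its call was lost without replicate 1 (-2.69) or 3 (-2.74) of N. furzeri. Outside these species, miR-462 stood at 197 to 414 RPM in 5 single libraries and at 4924 RPM in E. dageti monroviae.

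Lower in N. furzeri were also abundant arms of several other families. miR-204-5p of the lens and pigment epithelium of the eye stood at 625, 587 and 451 CPM in N. furzeri replicates 1 to 3, against 2447, 1856, 2871 and 985 CPM in A. striatum replicates 1 to 4, and the log2 fold change was -1.88 (SE 0.46, adjusted p = 0.0136). miR-184, the more abundant of the 2 tested miRNAs of these eye tissues, was not called and stood at 0.65 (SE 0.50). let-7g, of the let-7 family that increases as cells differentiate, stood at 42.5, 94.7 and 81.3 CPM in N. furzeri replicates 1 to 3, against 391, 222, 458 and 221 CPM in A. striatum replicates 1 to 4, and gave -2.15 (SE 0.49, adjusted p = 0.0120). The N. furzeri values lay below all A. striatum values for miR-204-5p and let-7g. The call of miR-204-5p was lost without any 1 of the N. furzeri replicates (-1.95 to -1.72), and that of let-7g without replicate 1 (-1.83) or 3 (-2.19). miR-15b-5p, whose family represses cell cycle genes, gave -2.06 (SE 0.55, adjusted p = 0.0194) and ranged from 20.6 to 63.9 CPM in N. furzeri and 114 to 230.0 CPM in A. striatum; it came to -2.73 without replicate 1 of N. furzeri and was lost without replicate 2 (-1.89) or 3 (-1.70). miR-22b-3p, the less abundant copy of miR-22, stood at 10.4, 19.4 and 18.3 CPM in N. furzeri replicates 1 to 3, against 45.6, 63.3, 59.6 and 139 CPM in A. striatum replicates 1 to 4, and gave -2.27 (SE 0.56, adjusted p = 0.0138). Its call was lost without any 1 of the N. furzeri replicates (-2.49 to -1.98). Its abundant copy miR-22a-3p was not called and stood at 0.76 (SE 0.42).

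Abundant arms that were lower also included 3 from the miR-181, miR-130 and miR-301 families. miR-181a-2-3p, known to be cut from a hairpin that also gives miR-181a-5p, stood at 393, 212 and 374 CPM in N. furzeri replicates 1 to 3, against 1990.3, 1154, 755 and 1162 CPM in A. striatum replicates 1 to 4. All N. furzeri values were lower, and the log2 fold change was -1.95 (SE 0.46, adjusted p = 0.0135). miR-130c-5p, the minor arm of its hairpin, and miR-301b-5p, whose opposite arm miR-301b-3p had 0 counts in all 7 libraries, belong to related families. miR-130c-5p stood at 49.3, 36.4 and 46.3 CPM in N. furzeri replicates 1 to 3, against 242, 101, 118 and 991 CPM in A. striatum replicates 1 to 4. Replicate 4 of A. striatum, the lane 1 library, was the highest by far, and the log2 fold change was -3.04 (SE 0.81, adjusted p = 0.0194) with it and -1.86 without it, still called. miR-301b-5p averaged 40.2 ± 14.1 CPM in N. furzeri (SD, n = 3) and 113 ± 37.6 CPM in A. striatum (n = 4), which is -1.49 on the log2 scale (SE 0.48, adjusted p = 0.0446). The calls of these 3 arms were each lost in fits without a replicate of N. furzeri, with values between -3.11 and -1.23, and those of miR-130c-5p and miR-301b-5p also without replicate 1 of A. striatum. Library totals in place of trimmed means ended the calls of miR-15b-5p (-2.58), miR-22b-3p (-2.81), miR-130c-5p (-3.79) and miR-301b-5p (-1.92), without a change of sign. With the sequencing run as covariate, the calls of miR-15b-5p (-1.64) and miR-301b-5p (-1.10) ended. That fit draws the species difference from the pool 3 libraries only, because replicate 4 of A. striatum is the only lane 1 library. miR-301b-5p was called in 4 of 14 alternatives, and its call also ended with DESeq2 size factors, with trimmed means without the 10 most abundant miRNAs, with no filter and with arms of at least 50 CPM.

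The called abundant arms that were higher in N. furzeri and not near the floor in either species numbered 5. miR-30e-3p had the most counts of them, and the opposite arm of its hairpin, miR-30e-5p, was not called at -0.76 (SE 0.41). miR-30e-3p stood at 3245, 7917 and 5788 CPM in N. furzeri replicates 1 to 3, against 1864, 926, 2565 and 419 CPM in A. striatum replicates 1 to 4. Replicate 1 of N. furzeri lay only a little above replicate 3 of A. striatum, and the log2 fold change was 1.97 (SE 0.59, adjusted p = 0.0331). miR-30d, listed without an arm, stood at 192, 109 and 116 CPM in N. furzeri replicates 1 to 3, against 28.4, 29.0, 44.0 and 85.5 CPM in A. striatum replicates 1 to 4, and the log2 fold change was 1.58 (SE 0.51, adjusted p = 0.0470). Neither was called in the majority of fits that left out 1 library: miR-30e-3p was lost in 5 of 7 (1.79 to 2.29) and miR-30d in 6 of 7 (1.33 to 1.78). With library totals miR-30d came to 1.03 and was not called, and its call also ended with no filter and with arms of at least 50 CPM.

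miR-27c-3p, of clusters with roles in blood vessel growth, stood at 956, 564 and 574 CPM in N. furzeri replicates 1 to 3, against 148, 194, 202 and 68.4 CPM in A. striatum replicates 1 to 4. The groups were far apart, and the log2 fold change was 2.19 (SE 0.46, adjusted p = 0.00975), and the call was lost without replicate 1 of N. furzeri (1.91). miR-375, which is needed for pancreatic islets in zebrafish, stood at 502, 102 and 198 CPM in N. furzeri replicates 1 to 3, against 65.4, 79.9, 25.1 and 60.5 CPM in A. striatum replicates 1 to 4, and gave 2.20 (SE 0.59, adjusted p = 0.0194). Replicate 1 of N. furzeri had the highest value, and without it the log2 fold change was 1.38 and not called. The call was also lost without replicate 2 (2.49) or 3 (2.41) of N. furzeri, without A. striatum replicate 1 (2.24), under library totals (1.70) and with the sequencing run as covariate (2.21). miR-455-5p, known from cartilage, averaged 131 ± 60.4 CPM in N. furzeri (SD, n = 3) and 36.8 ± 10.4 CPM in A. striatum (n = 4), and the log2 fold change was 1.83 (SE 0.48, adjusted p = 0.0189). It was also lost in fits without any 1 of the N. furzeri replicates (1.48 to 2.08), without A. striatum replicate 1 (1.76), under library totals (1.38), with the run as covariate (1.88) or with arms of at least 50 CPM (1.74).

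**Figure D3:**
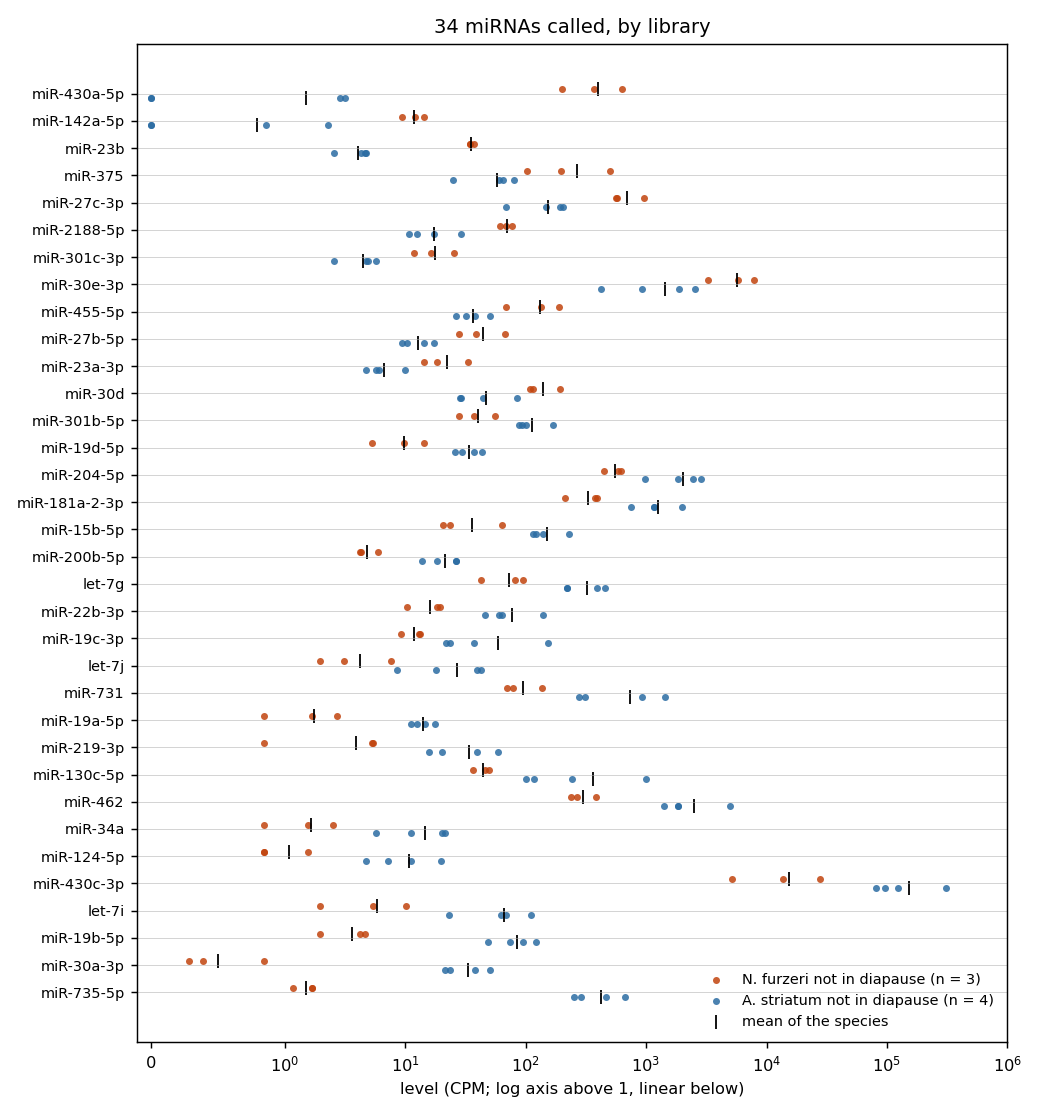
Level of the 34 called miRNAs in each library (x axis, CPM, log scale above 1 and linear below), with N. furzeri points above A. striatum points in each row and a bar at each species' mean. The points of the species are apart in every row, and the largest distances are those of miR-430a-5p, miR-735-5p and miR-30a-3p, where 1 species has hardly any reads.

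The largest fold changes among abundant arms were those of 3 arms near the floor in 1 species. miR-735-5p, a miRNA described in fish, had 6, 2 and 3 counts in N. furzeri replicates 1 to 3, against 542, 877, 429 and 407 counts in A. striatum replicates 1 to 4. The counts summed to 11 in N. furzeri and 2255 in A. striatum, which in RPM is a level 288 times as high in A. striatum (95% counting interval 161 to 578). The log2 fold change was -8.07 (SE 0.67, adjusted p = 1.07e-05), and its size is uncertain because the N. furzeri level rests on so few reads. In the 5 N. furzeri diapause libraries it stood between 0 and 6.40 RPM. It was at 0.917 RPM in A. leohoignei and 1.91 RPM in E. dageti monroviae, and at 32.3 RPM in R. cylindraceus, 54.0 RPM in A. lineatus, 56.7 RPM in C. occidentalis and 141 RPM in N. papilliferus. N. furzeri shared a low level of miR-735-5p with A. leohoignei and E. dageti monroviae.

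miR-430a-5p, the minor arm opposite miR-430a-3p, was higher in N. furzeri, with 707, 740 and 942 counts in N. furzeri replicates 1 to 3, against 0, 10, 2 and 0 counts in A. striatum replicates 1 to 4. It had no read in replicates 1 and 4 of A. striatum, although miR-430a-3p was counted 354771 and 258710 times there. The log2 fold change was 7.93 (SE 0.90, adjusted p = 0.000147), 9.02 without replicate 2 of A. striatum, and the summed level was 142 times as high in N. furzeri (95% counting interval 81.0 to 275). Among the other species, A. lineatus and E. dageti monroviae had 2466 and 2822 RPM, C. occidentalis had 21.1 RPM, and N. papilliferus, A. leohoignei and R. cylindraceus had 0. The N. furzeri diapause libraries held 65.8 to 326 RPM. These levels do not take the level of miR-430a-3p into account. Of the counts on both arms, miR-430a-5p made up 2.96% in A. lineatus, 7.99% in E. dageti monroviae and 0.283% in C. occidentalis. It made up 0% in N. papilliferus, A. leohoignei and R. cylindraceus.

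miR-19b-5p, the minor arm of a miR-17-92 cluster hairpin, had 7, 5 and 12 counts in N. furzeri replicates 1 to 3, against 143, 170, 61 and 105 counts in A. striatum replicates 1 to 4. The log2 fold change was -4.57 (SE 0.62, adjusted p = 0.000418), and that of its major arm miR-19b-3p was 0.10 (SE 0.37), not called. Outside A. striatum no library of the series had more than 13.3 RPM of miR-19b-5p, the level of E. dageti monroviae, and A. striatum had 56.6 to 139.7 RPM. For this arm A. striatum stood apart from all the other species. In RPM, the low levels of miR-735-5p in N. furzeri and of miR-430a-5p in A. striatum were shared by some other species.

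**Figure D4:**
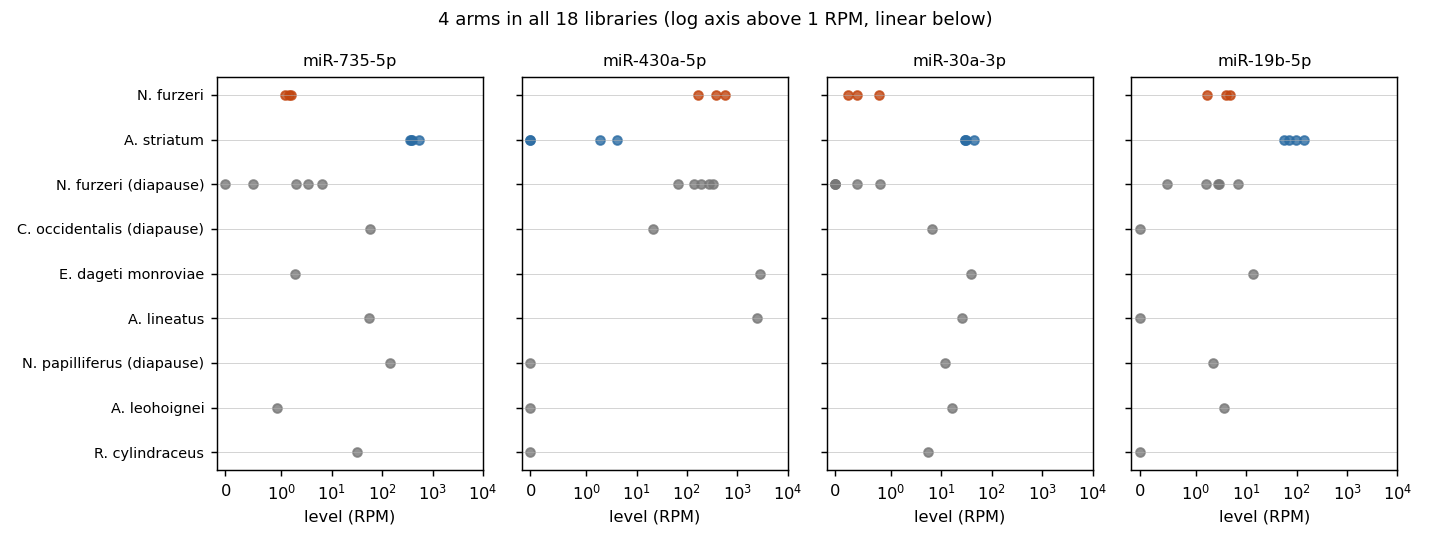
Level in RPM (x axis, log scale above 1 and linear below) of miR-735-5p, miR-430a-5p, miR-30a-3p and miR-19b-5p in all 18 libraries, 1 point per library, with N. furzeri and A. striatum not in diapause in the top rows and the other groups in grey. miR-30a-3p is at or under 0.8 RPM in N. furzeri only, and miR-19b-5p is above 50 RPM in A. striatum only.

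Of the 16 rare arms that were called, 5 were near the floor in N. furzeri. miR-30a-3p had 1 count in each N. furzeri library, against 44, 75, 32 and 33 counts in A. striatum replicates 1 to 4. With 3 reads in all, the level in A. striatum was 86.1 times that in N. furzeri, with a 95% counting interval of 29.0 to 421.5, and the log2 fold change was -6.06 (SE 0.75, adjusted p = 0.000242). None of the 8 N. furzeri libraries of the series, in diapause or not, exceeded 0.800 RPM, whereas the 6 single-library species had 5.38 to 38.1 RPM. Its opposite arm miR-30a-5p had 0 counts in all 7 libraries. miR-34a, which p53 induces, had 3, 3 and 4 counts in N. furzeri and 13, 74, 13 and 8 in A. striatum, or -3.23 in log2 fold change (SE 0.73, adjusted p = 0.0120). miR-19a-5p, another miR-17-92 cluster minor arm, had 3, 2 and 7 counts in N. furzeri and 17, 39, 8 and 25 in A. striatum (-2.98, SE 0.63, adjusted p = 0.00991). miR-124-5p, an arm of the neuronal miR-124 hairpin, had 3, 1 and 4 counts in N. furzeri and 13, 25, 3 and 28 in A. striatum, and let-7j had 11, 9 and 5 counts in N. furzeri and 21, 30, 27 and 55 in A. striatum. Their log2 fold changes were -3.24 (SE 0.73) and -2.73 (SE 0.75), and replicate 3 of A. striatum, with 3 counts of miR-124-5p, was itself at the floor. Of these, miR-34a and let-7j were lost without any 1 of the N. furzeri replicates (-3.49 to -2.85 and -3.30 to -2.27), and miR-19a-5p and miR-124-5p without replicate 1 or 2 (-2.98 to -2.54 and -3.24 to -2.98). let-7j was also lost without replicate 1 (-2.82) or 3 (-2.44) of A. striatum, with library totals (-3.04) and with the run as covariate (-2.17).

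Rare arms near the floor in A. striatum numbered 3. miR-23b, of the clusters that also hold miR-27, had 122, 41 and 96 counts in N. furzeri replicates 1 to 3, against 3, 16, 3 and 6 counts in A. striatum replicates 1 to 4. It was level among the N. furzeri libraries at 34.3 to 37.4 CPM, against 2.58 to 4.71 CPM in A. striatum, and the log2 fold change was 3.11 (SE 0.50, adjusted p = 0.00167). Elsewhere it stood at 1.71 RPM in A. lineatus and 54.1 RPM in A. leohoignei. miR-142a-5p, of a blood cell hairpin, had 43, 17 and 24 counts in N. furzeri and 1, 8, 0 and 0 in A. striatum. Its log2 fold change was 3.36 (SE 0.79, adjusted p = 0.0135) and became 4.93 without replicate 2 of A. striatum. miR-301c-3p had 90, 14 and 42 counts in N. furzeri and 3, 17, 3 and 8 in A. striatum and gave 1.98 (SE 0.54, adjusted p = 0.0218). The last 2 calls were lost in fits without a replicate of N. furzeri or without replicate 1 of A. striatum (3.21 to 3.52 and 1.66 to 2.17), and with library totals (3.04 and 1.56). miR-301c-3p was also lost without replicate 3 of A. striatum (1.98).

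The 8 called rare arms that were not near the floor in either species had log2 fold changes between -3.57 and 1.99. let-7i, another let-7 member, had 7, 12 and 14 counts in N. furzeri and 80, 81, 40 and 156 in A. striatum. Its log2 fold change of -3.57 (SE 0.74, adjusted p = 0.00975) was the largest of the 8 and became -4.18 without replicate 2 of N. furzeri, and the call was lost without replicate 1 or 3. miR-219-3p, from the hairpin of a miRNA of oligodendrocytes, had 19, 1 and 14 counts in N. furzeri and 46, 204, 13 and 22 in A. striatum and gave -3.02 (SE 0.72, adjusted p = 0.0135). In CPM the N. furzeri values were below all A. striatum values for both. miR-200b-5p of an epithelial hairpin gave -2.15 (SE 0.54), miR-19d-5p -1.81 (SE 0.54) and miR-19c-3p -2.31 (SE 0.75). miR-19c-3p had 216 counts in replicate 4 of A. striatum and 15 to 76 in the other 3, and without replicate 4 it came to -1.27 and was not called. Its call was also lost without any 1 of the N. furzeri replicates (-2.34 to -2.26), without replicate 1 of A. striatum (-2.42) and with the run as covariate (-1.09), and it was called in 3 of 13 alternatives. Higher in N. furzeri were miR-2188-5p (1.99, SE 0.49, adjusted p = 0.0138), miR-27b-5p (1.82, SE 0.51) and miR-23a-3p (1.72, SE 0.54). miR-2188-5p had 275, 73 and 178 counts in N. furzeri and 34, 60, 8 and 15 in A. striatum, so that this rare arm was counted in every library. Library totals ended the calls of miR-2188-5p (1.76), miR-27b-5p (1.47), miR-23a-3p (1.26), miR-19d-5p (-2.11) and miR-19c-3p (-3.02). The calls of miR-200b-5p, miR-19d-5p, miR-2188-5p, miR-27b-5p and miR-23a-3p were also lost without any 1 of the N. furzeri replicates, at -2.25 to -2.02, -2.17 to -1.47, 1.91 to 2.06, 1.43 to 2.09 and 1.32 to 1.91. Without replicate 1 of A. striatum miR-200b-5p (-1.99), miR-19d-5p (-1.65), miR-27b-5p (1.72) and miR-23a-3p (1.69) were lost, without replicate 2 miR-27b-5p (1.68) and miR-23a-3p (1.59), and without replicate 3 miR-23a-3p (1.61). With the run as covariate miR-19d-5p (-1.66) was lost, with no filter miR-19d-5p (-1.71) and miR-23a-3p (1.76), and with trimmed means without the 10 most abundant miR-19d-5p (-1.71). miR-219-3p was lost without any 1 N. furzeri library or the A. striatum replicate 1 (-3.30 to -2.67).

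A further 113 miRNAs had a count but too few to be tested, with a median of 16 counts over the 7 libraries. Of these, 7 were counted in N. furzeri only and 23 in A. striatum only. The largest total seen in N. furzeri only was 12 counts, of miR-135c. In A. striatum only it was 193 counts, of miR-9-4-3p, all of them in replicate 4, where miR-9-7-3p had 197. No difference was tested for these arms. miRNAs of one family share much of their sequence (miR-430, miR-19, miR-23, miR-27, miR-301, let-7, miR-10 and the near-identical miR-126a-5p and miR-126b-5p), and how reads matching several names were counted was not given in the sources used here, so the level of any 1 member is uncertain.

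The ratio of arms counted in the same library does not depend on how libraries are scaled. Arms were paired by name, and a name can cover several precursor copies. Some copies have a minor arm listed separately, such as miR-10b-2-3p, miR-92a-2-5p and miR-430a-11-5p, which was not added in. A hairpin here therefore means the 5p and 3p arms of 1 name. Whether a ratio reflects the choice of arm within 1 precursor was not tested. Of 75 hairpins with both arms listed, 35 had enough counts to be tested with limma on the log2 ratio of minor to major arm (the minor arm being the one with the lower mean RPM over the 7 libraries, 0.5 added to each count). The ratio was called for 13 of 35 (37.1%), with the minor arm relatively higher in N. furzeri for 3 and lower for 10, among them miR-221, whose minor arm had no N. furzeri count. The libraries did not overlap for 16, and the difference was negative for 26 of 35 with a median of -0.60. Of the 22 not called, 14 were under 1 on the log2 scale. In 23 hairpins both arms were in edgeR's test, and both arms were called in 0 of them by edgeR. Both arms had an unadjusted p under 0.05 in 4 of the 23, and DESeq2 called both in 1. In 8 only the minor arm was called (miR-19a, miR-19b, miR-19d, miR-27b, miR-130c, miR-200b, miR-430a and miR-2188), in 1 only the major arm (miR-30e), and in 14 neither.

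miR-430a had the largest difference. Of the hairpin's counts, the minor arm miR-430a-5p made up 0.436%, 0.313% and 0.353% in N. furzeri replicates 1 to 3, against 0%, 0.00183%, 0.000406% and 0% in A. striatum replicates 1 to 4. The log2 ratio differed by 9.82 (SE 0.81, adjusted p = 5.50e-07), and 10.57 without replicate 2 of A. striatum. Its size is uncertain, because replicates 1 and 4 of A. striatum had 0 counts of this arm and their ratios rest on the 0.5 added. The lowest value among the alternative fits was 8.21. The next was miR-19b, whose 5p share was 0.246%, 0.655% and 0.769% in N. furzeri replicates 1 to 3, against 18.8%, 8.92%, 12.5% and 8.09% in A. striatum replicates 1 to 4. Every N. furzeri share was far below every A. striatum share, a difference of -4.60 (SE 0.55, adjusted p = 1.58e-05). For miR-19a the 5p share was 0.225 to 0.993% in N. furzeri and 4.28 to 6.46% in A. striatum, a difference of -3.17 (SE 0.73, adjusted p = 0.00577) that became -2.57 without replicate 1 of N. furzeri. The major 3p arm was not called in either hairpin, and the log2 fold change was 0.17 for miR-19a-3p and of 0.10 for miR-19b-3p, which came to -0.32 with library totals.

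In miR-200a, an epithelial miRNA, the order of the arms was reversed between the species. Of the hairpin's counts, the 3p arm made up 78.7%, 70.1% and 61.6% in N. furzeri replicates 1 to 3, against 23.1%, 34.7%, 37.3% and 22.8% in A. striatum replicates 1 to 4. The 3p arm was the more abundant one in all 3 N. furzeri libraries and the less abundant one in all 4 A. striatum libraries, and the log2 ratio differed by 2.55 (SE 0.52, adjusted p = 0.00310). Neither arm was called by itself, with log2 fold changes of 1.20 for the 3p arm and -1.18 for the 5p arm. The other species fell on either side: the 3p arm made up 90.1% in N. papilliferus, 94.4% in A. leohoignei and 96.9% in C. occidentalis, and 21.5% in E. dageti monroviae, 25.8% in A. lineatus and 28.4% in R. cylindraceus. It was 78.6 to 93.2% in the N. furzeri diapause libraries. 

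miR-30e was the hairpin whose major arm was called in edgeR's test. Its 5p arm made up 13.6%, 7.27% and 11.7% in N. furzeri replicates 1 to 3, against 25.5%, 54.3%, 29.0% and 77.9% in A. striatum replicates 1 to 4, with the 5p arm ahead of the 3p arm in replicates 2 and 4 of A. striatum. The difference was -2.90 (SE 0.76, adjusted p = 0.00909), and -2.23 without replicate 4 of A. striatum, still called; it was lost without replicate 2 of N. furzeri (-2.60). This share also differed between N. furzeri diapause libraries of different sequencing runs. Among them the 5p arm made up 52.4 and 49.6% in the lane 1 libraries, 13.9 and 5.80% in those of pool 3 and 14.3% in that of pool 2. The labels give a length of diapause for the pool 3 and pool 2 libraries and none for the lane 1 libraries. Run and diapause length therefore cannot be told apart there. Other lane 1 libraries had 56.9% (N. papilliferus), 66.4% (C. occidentalis), 73.7% (R. cylindraceus), 76.4% (A. leohoignei) and 82.7% (E. dageti monroviae). In pool 3, A. lineatus had 24.5%, whereas A. striatum replicate 2 had 54.3%. Species and run cannot be told apart in these single libraries. Replicate 4 of A. striatum, at 77.9%, was the only lane 1 library of the comparison. The part of the run in the difference was examined only by leaving that library out, and was not tested otherwise. Replicate 4 was also the highest for miR-130c, whose 5p share was 2.58%, 3.14% and 3.84% in N. furzeri replicates 1 to 3, against 21.2%, 11.2%, 13.3% and 61.5% in A. striatum replicates 1 to 4. The difference was -3.21 (SE 0.76, adjusted p = 0.00660) with replicate 4 and -2.41 without it, called both ways.

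Among the other hairpins the minor shares were small. The 3p arm of miR-181b, from a family expressed in lymphoid and neural cells, made up 0 to 0.0747% in N. furzeri and 0.221 to 0.722% in A. striatum, on 0 to 8 reads in N. furzeri and 2 to 18 in A. striatum, a difference of -2.66 (SE 0.69, adjusted p = 0.00909). miR-141-5p of an epithelial hairpin made up 0.977 to 3.33% in N. furzeri and 5.83 to 28.0% in A. striatum, on 3 to 7 and 6 to 8 reads, a difference of -3.10 (SE 0.77, adjusted p = 0.00771) that was lost without replicate 1 of N. furzeri (-2.61). miR-135b-3p made up 0.929 to 2.30% in N. furzeri and 3.70 to 45.7% in A. striatum, a difference of -2.93 (SE 0.97, adjusted p = 0.0282) with replicate 4 of A. striatum and -1.99 without it, and its call was lost without N. furzeri replicate 1 (-2.58), N. furzeri replicate 2 (-2.97) or the first A. striatum replicate (-3.04). miR-221-5p, of a hairpin known from vessel endothelium, had 0 counts in every N. furzeri library and 1, 6, 1 and 6 counts in A. striatum. A count of 0 allows a share of up to 0.333, 1.01 and 0.463% in N. furzeri replicates 1 to 3, against 0.258%, 0.695%, 0.459% and 0.995% in A. striatum replicates 1 to 4. Over the summed libraries the A. striatum share was 0.676% and the N. furzeri floor 0.163% (3 counts over the group), 4.15-fold apart. This is not a lower limit, because it leaves out the counting error of the A. striatum reads and the spread between libraries. The ratio entered the test through A. striatum counts alone, so its size rests on the 0.5 added and it supports no count of lower ratios. Its call was lost when 1 or 3 was added to each count in place of 0.5 and in the fits that left out N. furzeri replicate 1 (-2.59) and A. striatum replicate 1 (-3.21).

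Called with smaller differences were miR-200b (-2.23, SE 0.74, adjusted p = 0.0282), miR-92a (-1.59, SE 0.54, adjusted p = 0.0301) and miR-20a (1.51, SE 0.49, adjusted p = 0.0282), which are named here after their values were seen. The 5p arm of miR-200b made up 12.2 to 13.5% in N. furzeri and 20.97 to 64.6% in A. striatum, and that of miR-92a, with 1678 or more reads in every library, 1.91 to 3.89% in N. furzeri and 5.07 to 10.1% in A. striatum. The 3p arm of miR-20a was relatively higher in N. furzeri, at 10.4 to 12.2% in N. furzeri and 2.54 to 7.56% in A. striatum. miR-19b, miR-92a and miR-20a belong to the same group of clusters, and their minor arms did not all differ in the same direction. The calls of miR-200b, miR-92a and miR-20a were lost in 4, 5 and 6 of the 7 fits without 1 library, with values of -2.28 to -1.80, -1.65 to -1.38 and 1.27 to 1.55. The call of miR-20a also ended without the trend and robust settings of limma. The ratios of miR-430a, miR-19b, miR-19a, miR-200a, miR-130c and miR-181b were called in every such fit that tested them.

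**Figure D5:**
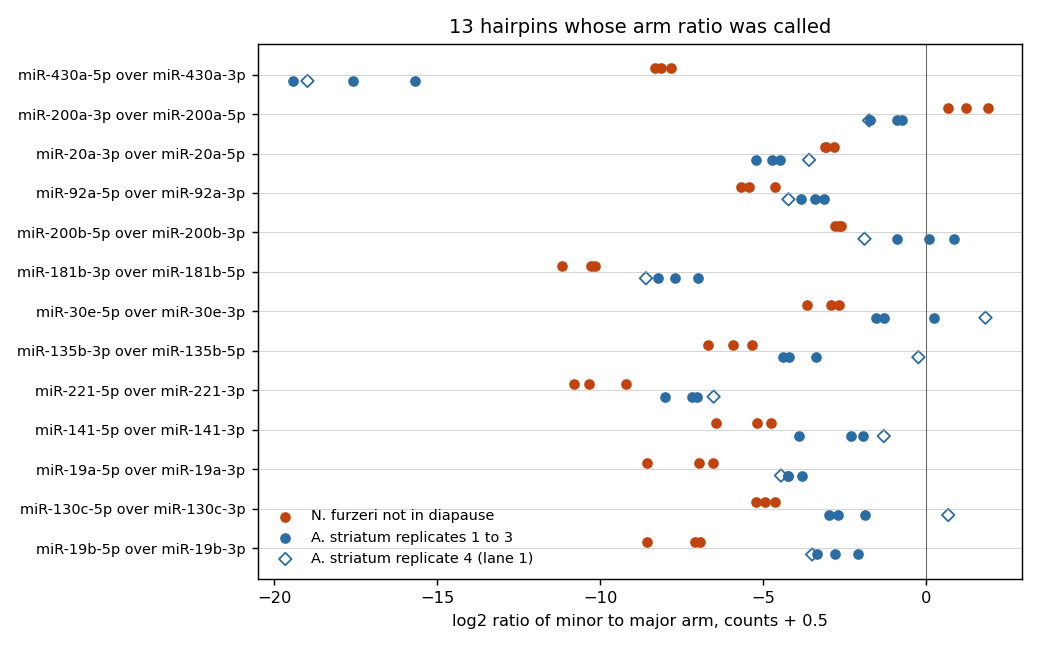
Log2 ratio of minor to major arm (x axis, counts + 0.5) for the 13 called hairpins, 1 point per library, with N. furzeri above A. striatum in each row and replicate 4 of A. striatum, from lane 1, drawn as an open diamond. The points cross 0 for miR-200a, where the N. furzeri libraries lie right of 0 and the A. striatum libraries left of it, and the diamond lies furthest right in A. striatum for miR-30e, miR-135b, miR-130c, miR-141, miR-20a and miR-221.

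The calls by family are given beside the 21.7% called among all 157 miRNAs and their median of -0.00416. edgeR called 0 of 7 Hox cluster miRNAs, with a median log2 fold change of 0.68, an unadjusted p under 0.05 for 1 and 0 calls by DESeq2. It called 0 of 13 miR-17-92 cluster members other than miR-19, with a median of -0.26, where 3 had an unadjusted p under 0.05 and DESeq2 called 1. Of 4 muscle miRNAs edgeR called 0 (median -0.39), none had an unadjusted p under 0.05 and DESeq2 called 0, and the most abundant, miR-206-3p, gave -0.26 (SE 0.57). Of 11 epithelial miRNAs 1 was lower, and DESeq2 also called 1 higher. Their median of -0.07 came to 0.0061 when the 10 most abundant miRNAs were left out of the trimmed means. Of 9 neural miRNAs 3 were lower (miR-34a, miR-124-5p and miR-219-3p, each rare), the median was -1.05, and miR-128-3p, the most abundant of them, stood at 0.51 (SE 0.65), or -0.19 with library totals. Without replicate 4 of A. striatum miR-128-3p was at 1.41 and was called higher. It was also called with the run as covariate (1.63), a fit whose species difference rests on the same libraries.

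Of 7 miR-19 members 4 were lower (median -1.81), 3 of them 5p arms and miR-19c-3p, and 2 or 3 under the other scalings. Of 7 let-7 members 3 were lower (2 with library totals), with a median of -2.15, and let-7a, the most abundant, was not called at -0.91 (SE 0.51). Of 16 vessel miRNAs 4 were higher with a median of 0.20, which came to -0.27 with 2 calls under library totals, and the most abundant, miR-222a-3p, was not called at -1.06 (SE 0.49). All 3 tested hypoxia and stress miRNAs of 5 listed were lower (median -3.09), also with library totals, namely miR-462, miR-731 and miR-34a. miR-462 and miR-731 are cluster neighbours, and miR-34a was also counted among the neural miRNAs. The arms of miR-210, known for its response to hypoxia, had too few counts to test. miR-210-3p had 9, 2 and 5 counts in N. furzeri and 1, 17, 1 and 1 in A. striatum. Of 6 miR-30 members 2 were higher and 1 lower (median 0.81; 1 higher and 1 lower with library totals), and of 5 miR-130, miR-301 and miR-454 members 1 was higher and 2 lower (median 0.84), while library totals gave 0 calls there and the other scalings 1 in each direction. The lower ones were miR-130c-5p and miR-301b-5p. miR-192 of liver and gut, with 2770.5, 2105 and 2129.9 CPM in N. furzeri and 191, 1833, 146 and 125 CPM in A. striatum, was not called at 2.02 (SE 0.85). Replicate 2 of A. striatum was the exception there, and without it miR-192 came to 3.89 and was called. miR-144-5p of red blood cells stood at 21.1, 4.23 and 14.4 CPM in N. furzeri replicates 1 to 3. In A. striatum replicates 1 to 4 it stood at 219.5, 250.2, 0 and 17.1 CPM. Only replicates 1 and 2 of A. striatum were high, and replicate 4 lay inside the N. furzeri range. The log2 fold change of miR-144-5p was -3.17 (SE 1.29), not called. It came to -3.59 and was called without replicate 3 of A. striatum, which had 0 counts. Of 4 pancreas miRNAs 1 was higher (median 0.80), namely miR-375, the most abundant of them, whose values are given above. The most abundant tested members of the other remaining lists were not called. miR-182-5p of sensory organs stood at 0.86 (SE 0.45), miR-130c-3p at 0.84 (SE 0.37) and miR-148 at 1.02 (SE 0.51). miR-101a stood at 1.31 (SE 0.58), miR-103 at 0.71 (SE 0.40), miR-26a-5p at 0.34 (SE 0.40) and miR-100-5p at 0.31 (SE 0.45). miR-140-3p came to -0.32 (SE 0.49), miR-16b to -0.07 (SE 0.36) and miR-725-3p to 0.02 (SE 0.44).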

How the data were processed

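Total RNA went into TruSeq small RNA libraries, as the labels' protocols state. The submitters' processing notes list Bowtie (1.0.0, 1.1.2), CASAVA 1.8.2 and bcl2fastq 1.8.3. The authors deposited raw read counts and RPM per mature miRNA, from trimmed reads of 18 to 33 nt, per the file headers. The counting reference, mismatches and multiple matches were not given in the sources used here. The deposited RPM equalled the count over the library total, scaled to 1000000, for 100% of values (tolerance 0.001), and were used for levels in the other species. A final total line and 2 count columns of no listed sample were left out.

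edgeR 4.0.16 in R 4.3.3 tested counts (filterByExpr, trimmed means of M values, quasi-likelihood test, Benjamini-Hochberg adjustment over 157 miRNAs, threshold 0.05). The scaling factors were 0.851 to 1.01 in N. furzeri and 0.592 to 1.87 in A. striatum. CPM are RPM after this scaling. The SE of an edgeR log2 fold change is its absolute value over the square root of the test's F statistic. It was thus worked back from the test and not estimated by the fit itself. limma 3.58.1 (trend, robust) tested log2 arm ratios, and single values had two-sided exact permutation tests. Counting intervals are exact at 95%. DESeq2 1.42.0 and other scalings, filters, pseudocounts and left-out libraries were alternatives. Fits were also run on simulated counts with changes set only in arms of at least 50 CPM, which does not cover changes in rare arms. Named were all called miRNAs, the 10 most abundant, up to 10 called hairpins by size, and the most abundant tested member of each of 28 lists. Members and lists were chosen with earlier results of these data known.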

Additional observations from a re-analysis of the deposited data

Results flagged for a closer look

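Of 78 values tested within A. striatum for a library far from the rest of its group, 6 were flagged, where chance flags about 1 in 20 groups. The N. furzeri libraries were not tested in this way. Each flag is a library whose distance to the nearest other library exceeded Dixon's 95% limit for the 4 libraries. Replicate 4, the lane 1 library, held 3 of them. It had 154 CPM of miR-19c-3p, where the other 3 libraries had 21.9 to 37.0 CPM. It had 991 CPM of miR-130c-5p beside 101 to 242 CPM, and 885 CPM of miR-128-3p beside 168 to 209 CPM. Replicate 3 had 4987 CPM of miR-462 beside 1408 to 1854 CPM, and 6357 CPM of miR-22a-3p beside 3376 to 3658 CPM. Replicate 2 had 1833 CPM of miR-192 beside 125 to 191 CPM.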

How the results depend on the processing

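Depth and the number of libraries limit the comparison: arms with a median of 10 or fewer counts in a species have uncertain fold sizes, and the smallest exact p is 0.0286. Leaving out each library in turn, edgeR called 7 to 44 miRNAs (34 with all libraries), 2 to 17 higher (12), 5 to 27 lower (22), 5 to 27 abundant (18) and 2 to 17 rare (16), and limma called 7 to 13 arm ratios (13). Library totals gave 19 calls, 4 higher, 11 abundant and 8 rare. Testing arms of at least 50 CPM gave 14 calls, 4 higher and 10 lower. A boundary of 20 CPM left 10 rare calls and one of 200 CPM left 10 abundant calls. DESeq2 size factors gave 33 calls (32 shared), trimmed means without the 10 most abundant miRNAs 33, no filter 32, DESeq2 38, and the run as a covariate 35 (27 shared), 51.4% of them higher in N. furzeri where the fit without it gave 35.3%. Pool 3 only holds the same libraries as the fit without replicate 4 of A. striatum, which kept 32 calls. The run as covariate is not a separate check from that fit. Replicate 4 is the only lane 1 library, so the run term takes it up and the species difference rests on the same pool 3 libraries. The covariate fit tested 195 arms, and the fit without replicate 4 tested 160. Counts of alternatives include both fits. No called value changed sign.

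The sign turned for these uncalled log2 fold changes, and the cause was not tested. With library totals miR-92a-3p came to -0.34, miR-19b-3p to -0.32, miR-100-5p and miR-128-3p each to -0.19, miR-26a-5p to -0.080 and miR-725-3p to -0.084. With arms of at least 50 CPM miR-92a-3p came to -0.017. Without the 10 most abundant in the trimmed means miR-21 came to 0.024 and miR-16b to 0.040. miR-16b also came to 0.0035 with DESeq2 size factors, 0.011 without a filter, 0.0036 in DESeq2 and 0.067 with the run as covariate. In pool 3 only miR-203a-3p came to -0.086 and miR-725-3p to -0.24. Leaving out single libraries gave -0.15 to 0.33 for miR-92a-3p, -0.45 to 0.21 for miR-21, -0.086 to 0.76 for miR-203a-3p, -0.045 to 0.24 for miR-19b-3p, -0.013 to 0.45 for miR-100-5p, -0.24 to 1.41 for miR-128-3p, -0.62 to 0.19 for miR-140-3p, -0.211 to 0.018 for miR-16b and -0.24 to 0.39 for miR-725-3p.

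No paired analysis was possible because the replicate numbers follow accession order and pair no samples.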
